A study of Homo sapiens with 6 samples.

Results

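Linear (Met1-linked) ubiquitin chains are written by the linear ubiquitin chain assembly complex, LUBAC, and removed by a few dedicated deubiquitinases. The genes described here are the 3 LUBAC subunits SHARPIN, RBCK1 (HOIL-1) and RNF31 (HOIP), the deubiquitinases OTULIN and CYLD, the CYLD adaptor SPATA2, and TNFAIP3 (A20). They were picked by name from the gene symbols of the deposited lists, and all 7 were found among 22496 symbols. Poly-A RNA was sequenced from LoVo, an established human colon adenocarcinoma cell line, in 3 libraries labelled SHARPIN knockout (KO) and 3 labelled non-target (NT), the control genotype. The question of the series is which transcripts differ once SHARPIN is lost. The labels give no treatment or time. How the gene was edited, and whether the KO libraries come from 1 clone, several clones or a pool, is not stated in the labels. Nothing in the labels ties replicates to separate cultures, and the p-values below therefore rest on a spread that may be technical.

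In LUBAC, RNF31 is the catalytic subunit, a ring-between-ring (RBR) ligase that joins the C-terminus of one ubiquitin to the first methionine of the next. RBCK1 and SHARPIN bind RNF31, stabilise it and release its autoinhibition, and loss of SHARPIN in mice lowers the amount of LUBAC protein and causes chronic dermatitis. Linear chains on receptor complexes such as the one at TNF receptor 1 recruit the IKK complex through its reader IKBKG (NEMO) and favour NF-kB signalling over cell death. OTULIN cleaves linear chains only, CYLD cleaves linear and Lys63-linked chains, and SPATA2 bridges CYLD to RNF31. A20 binds linear chains and restrains the same signal, and its gene is a classical NF-kB target.

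The lists held 19068 to 19476 genes in KO libraries and 19775 to 20158 in NT libraries. Depth, estimated in 1e6 fragments from the spacing of low values, was 21.6 to 22.2 in KO and 21.2 to 22.6 in NT. The deposited unit is FPKM, fragments per kilobase of transcript and per 1e6 mapped fragments. Its sum was highest in KO replicate 3, at 522919, against 416852 to 431264 in the other 5 libraries. NT replicates 2 and 3 were nearly alike (Pearson r = 0.997 across genes tested), while the other pairs within a group had r of 0.946 to 0.980. The labelled cell type was checked with 12 colon epithelium markers. The epithelial genes EPCAM (132 to 197 FPKM in KO and 192 to 198 FPKM in NT) and KRT8 (2216 to 4287 FPKM in KO and 1866 to 2409 FPKM in NT) were high throughout. Of the 12, 2 rose in KO and 5 fell, which is 58.3% called, against 12.2% of all genes tested (limma, described below). The largest changes were in GPA33 (0.824 to 2.48 FPKM in KO and 40.6 to 52.1 FPKM in NT), LGALS4 (1.75 to 3.25 FPKM in KO and 37.1 to 50.3 FPKM in NT) and CDH17 (2.95 to 11.1 FPKM in KO and 49 to 68.9 FPKM in NT), which fell. KRT20 rose (10.5 to 28.3 FPKM in KO and 1.21 to 7 FPKM in NT), and the highest adjusted p of these 4 genes was 0.0168 (limma). Of 15 markers of other cell types, CD3E was in no list and 12 did not reach 1 FPKM in 3 libraries. PTPRC, VWF, CDH5, ALB and SFTPC were at or below 0.04 FPKM in all 6 libraries. PECAM1, an endothelial marker like VWF and CDH5, had 0.01, 0.011 and 0.062 FPKM in KO replicates 1, 2 and 3. In NT replicates 1, 2 and 3 it had 0.533, 0.552 and 0.616 FPKM, below the filter and so not tested. The markers' summed level was 30 to 35.9 FPKM in KO and 27.5 to 44.2 FPKM in NT, most of it CD68. Among fibroblast markers, LUM fell, with 0.385, 0.199 and 0.151 FPKM in KO replicates 1, 2 and 3 against 5.03, 7.52 and 7.45 FPKM in NT replicates 1, 2 and 3 (limma, adjusted p = 5.83e-05), while COL1A1 and COL1A2 reached 6.60 and 6.12 FPKM in NT replicate 1 and stayed at or below 0.29 FPKM in the other 5 libraries. The part of these differences between libraries in the values below was not tested.

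None of the 7 genes passed the test between KO and NT. The test was limma on log2(FPKM + 1), two-sided, adjusted over the genes that reached 1 FPKM in 3 or more libraries, with a threshold of 0.05. All 7 genes passed that filter, with at least 1.24 FPKM in each library. With limma, 0 of 7 had an adjusted p below 0.05 and 0 of 7 an unadjusted p below 0.05, where 12.2% of the 13092 genes tested were called, 6.26% higher and 5.93% lower in KO, and 25.5% had an unadjusted p below 0.05. The median log2 fold change of the 7 was -0.02, beside 0.02 for all genes tested. The 95% intervals reached from -0.84 (RBCK1) to 0.73 (TNFAIP3), so a 2-fold change of the mean on the FPKM + 1 scale lies outside all 7.

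**Figure D1:**
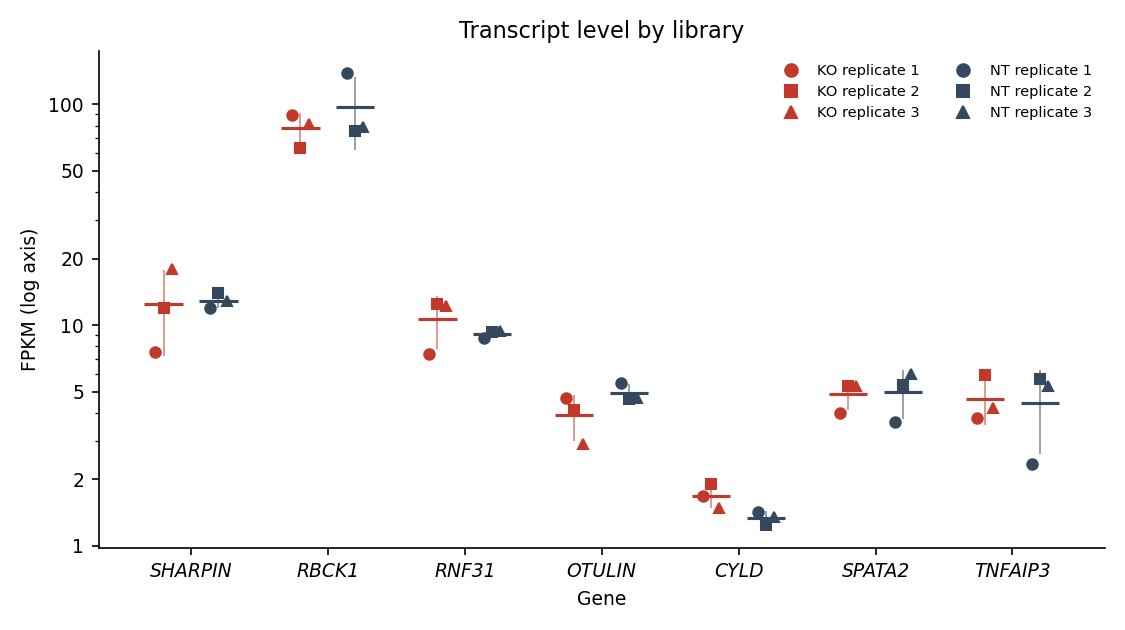
FPKM (log axis) of the 7 genes in each library, KO in red left of NT in dark blue, with the group mean (horizontal line) and SD (vertical line, n = 3). RBCK1 is highest and CYLD lowest in all 6 libraries, and CYLD alone has 3 KO libraries above the 3 NT libraries.

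The order of levels was much the same in KO and NT. RBCK1 was highest in each of the 6 libraries, at 63.1 to 138 FPKM. SHARPIN (7.55 to 18 FPKM) and RNF31 (7.37 to 12.5 FPKM) came next and could not be ordered beyond their spread, with SHARPIN the higher in 5 of 6 libraries. SPATA2, OTULIN and TNFAIP3 lay together between 2.34 and 6.01 FPKM and changed places from library to library. CYLD was lowest in each library, at 1.24 to 1.90 FPKM. Among the genes tested, the mean of RBCK1 lay at percentile 94.5 in KO and 96.3 in NT, and that of CYLD at percentile 11 in KO and 6.02 in NT. FPKM depends on the transcript length used for each gene, so these are levels per length as the authors computed it.

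SHARPIN, the gene named in the knockout label, had transcript in every KO library. The gene lies on chromosome 8 at 145153536 to 145163027, minus strand (GRCh37, GENCODE), with 9 exons in its canonical transcript. Its level was 7.55, 11.9 and 18 FPKM in KO replicates 1, 2 and 3, against 11.9, 13.9 and 12.9 FPKM in NT replicates 1, 2 and 3. KO replicate 1 was below and KO replicate 3 above each NT library, and the groups overlapped. For SHARPIN, KO minus NT came to -0.12 on the log2 scale (SE 0.26, n = 3 per group, limma's adjusted p = 0.827), a fold of 0.92 with a 95% interval of 0.61 to 1.39 on the FPKM + 1 scale. Edited alleles are often still transcribed, and mRNA values of this kind cannot tell whether the protein was lost. About 226 to 527 fragments per KO library and 361 to 399 per NT library lie behind these values if the canonical transcript length of 1.35 kb applies, a counting error of 4.36 to 6.65%. The SD among KO libraries on the log2 scale was 0.58, against 0.11 among NT libraries. Scaled to a common sum (TPM), SHARPIN stood at 17.8, 28.4 and 34.5 in KO and 28.2, 33 and 30 in NT, with KO replicate 3 still the highest. Without KO replicate 1 the sign of the difference turned (log2 fold change 0.17; limma, adjusted p = 0.578).

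The annotated span of SHARPIN holds the whole of MAF1, a repressor of RNA polymerase III, on the opposite strand, and the start of WDR97. Libraries mark the strand, but whether counting used it is not stated in the sources, so SHARPIN fragments are uncertain there. MAF1 stood at 42.5, 56.9 and 78.3 FPKM in KO replicates 1, 2 and 3, and at 47.6, 48.7 and 51.4 FPKM in NT replicates 1, 2 and 3. Both genes were lowest in KO replicate 1 and highest in KO replicate 3. As a ratio within each library, SHARPIN to MAF1 was 0.178, 0.208 and 0.231 in KO and 0.25, 0.286 and 0.251 in NT, with no overlap between the groups. The difference in log2 ratio, taken from FPKM + 1, was -0.34 (exact permutation test, two-sided, p = 0.1, or 0.2 adjusted over 2 ratios). With 3 against 3 libraries the exact permutation test cannot go below p = 0.1. Against CYC1, the neighbour beyond the end of SHARPIN, the ratio was 0.0634, 0.118 and 0.132 in KO and 0.106, 0.125 and 0.112 in NT (exact permutation p = 0.9). Both ratios were chosen after the values were seen, and no share of ratios without overlap was taken over all genes. Among single genes tested, 32.1% had groups that did not overlap.

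RBCK1, the subunit with its own RBR domain, was highest in replicate 1 of both genotypes. It lies on chromosome 20 at 388142 to 412783, plus strand, and overlaps TBC1D20 on the other strand. RBCK1 had 89.2, 63.1 and 81.6 FPKM in KO replicates 1, 2 and 3, against 138, 75.3 and 78.8 FPKM in NT replicates 1, 2 and 3. NT replicate 1 stood above the other 5 libraries, and the groups overlapped. For RBCK1, KO minus NT came to -0.27 on the log2 scale (SE 0.25, n = 3 per group, limma's adjusted p = 0.551), with a 95% interval of -0.84 to 0.29. Without NT replicate 1 it was 0.00 (limma, adjusted p = 0.997). TBC1D20 stood at 18.3, 15.6 and 12.1 FPKM in KO and 13.1, 12.4 and 13.1 FPKM in NT.

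RNF31, the catalytic subunit, lies on chromosome 14 at 24615892 to 24629869, plus strand. Its first bases overlap PSME2 on the other strand, and an annotated read-through gene shares most of its span. RNF31 had 7.37, 12.5 and 12.2 FPKM in KO replicates 1, 2 and 3, against 8.75, 9.34 and 9.35 FPKM in NT replicates 1, 2 and 3. KO replicates 2 and 3 were above, and KO replicate 1 below, every NT library. For RNF31, KO minus NT came to 0.17 on the log2 scale (SE 0.21, n = 3 per group, limma's adjusted p = 0.664), with a 95% interval of -0.30 to 0.64. Without both replicate 1 libraries it was 0.37 (limma, adjusted p = 0.0878). With array weights, which let limma weight each library by its likeness to its group, it was 0.34 and passed (adjusted p = 0.0177). Those weights ran from 0.177 for KO replicate 1 to 9.47 for NT replicate 3, and 5269 genes, or 40.2% of those tested, passed with them.

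The 7 genes did not share 1 direction. RBCK1, OTULIN, SHARPIN and SPATA2 had a lower mean on the log2 scale in KO, and CYLD, RNF31 and TNFAIP3 a higher one. The signs of SHARPIN, RBCK1, SPATA2 and TNFAIP3 turned when 1 library was left out, and those of RNF31, OTULIN and CYLD held in each of 24, 23 and 23 other settings.

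**Figure D2:**
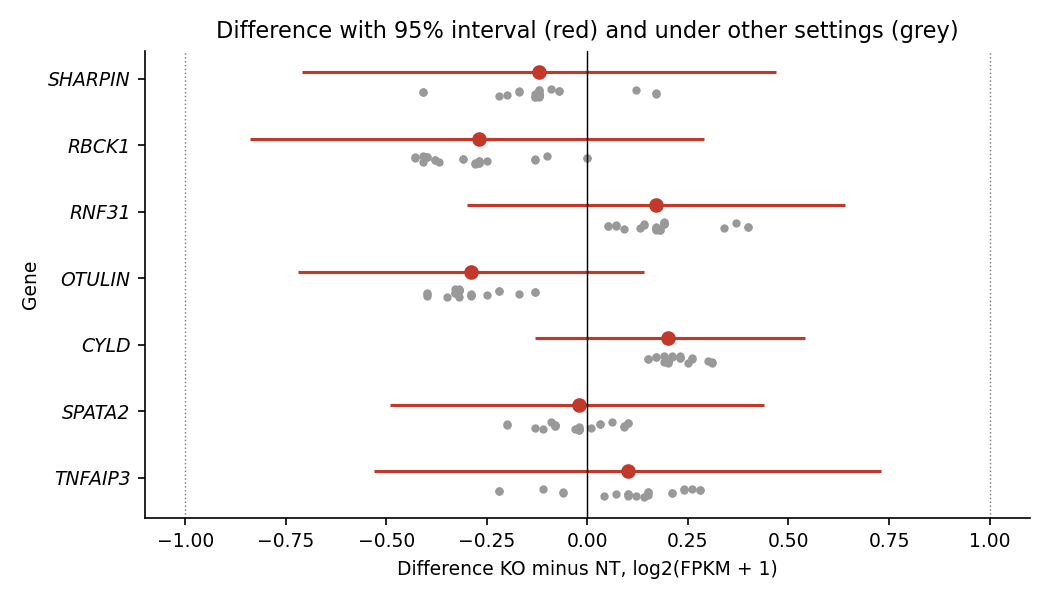
Difference KO minus NT in log2(FPKM + 1) for the 7 genes, as the estimate with its 95% interval (red, limma, n = 3 per group) and as estimates under other settings (grey, each a point). All 7 intervals cover 0 and lie within the dotted lines, which mark a 2-fold change.

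OTULIN, the deubiquitinase specific for linear chains, lies on chromosome 5 at 14664773 to 14699959, plus strand, with no other annotated gene overlapping it. It had 4.65, 4.14 and 2.90 FPKM in KO replicates 1, 2 and 3, against 5.48, 4.64 and 4.66 FPKM in NT replicates 1, 2 and 3. Each KO library was below the NT library of its number, though the labels state no pairing by number. KO replicate 1 was above NT replicate 2 by a margin within counting error. The difference of -0.29 on the log2 scale (SE 0.19, n = 3 per group, limma's adjusted p = 0.397) had a 95% interval of -0.72 to 0.14, and its unadjusted limma p of 0.166 was the lowest of the 7.

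CYLD was the gene of the 7 whose groups did not overlap. The gene lies on chromosome 16 at 50775961 to 50835846, plus strand. On the other strand it overlaps the long noncoding gene CYLD-AS1 over 766 bases and an unnamed long noncoding gene over 18077 bases. Neither is in the deposited lists. CYLD had 1.69, 1.90 and 1.48 FPKM in KO replicates 1, 2 and 3, against 1.43, 1.24 and 1.35 FPKM in NT replicates 1, 2 and 3. Among all genes tested 32.1% did not overlap, 16.5% with KO higher, so 1 of 7 is no more than the background. For CYLD, KO minus NT came to 0.20 on the log2 scale (SE 0.15, n = 3 per group, limma's adjusted p = 0.449), with a 95% interval of -0.13 to 0.54. KO replicate 3 and NT replicate 1 differed by less than the counting error of about 6.04% estimated for each. Scaled to TPM the groups overlapped, at 3.98, 4.55 and 2.84 in KO and 3.38, 2.93 and 3.12 in NT. With array weights, which called 40.2% of all genes tested, CYLD passed (log2 fold change 0.30; limma, adjusted p = 0.0341).

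SPATA2, the adaptor that carries CYLD to RNF31, lies on chromosome 20 at 48519928 to 48532066, minus strand. It had 3.99, 5.28 and 5.27 FPKM in KO replicates 1, 2 and 3, against 3.64, 5.35 and 6.01 FPKM in NT replicates 1, 2 and 3. Both replicate 1 libraries were low, and the KO libraries lay inside the NT range. Its difference of -0.02 on the log2 scale (SE 0.21, n = 3 per group, limma's adjusted p = 0.959) was the smallest in size of the 7, with a 95% interval of -0.49 to 0.44.

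TNFAIP3 lies on chromosome 6 at 138188351 to 138204451, plus strand, and its first bases overlap the long noncoding gene WAKMAR2 on the other strand. It had 3.79, 5.92 and 4.21 FPKM in KO replicates 1, 2 and 3, against 2.34, 5.68 and 5.27 FPKM in NT replicates 1, 2 and 3. Replicate 1 was the lowest library of each group, the reverse of RBCK1. For TNFAIP3, KO minus NT came to 0.10 on the log2 scale (SE 0.28, n = 3 per group, limma's adjusted p = 0.866), with a 95% interval of -0.53 to 0.73. Without NT replicate 1 it was -0.22 (limma, adjusted p = 0.624 with the filter applied anew).

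TNFAIP3 and CYLD are negative regulators of NF-kB, and TNFAIP3 is induced by it, so the bases before their starts are shown with a kappaB-type motif in capitals. The motif is GGG, any 2 bases, TT, any 1 base and CC, with no other motif searched. The motif was searched on both strands of RefSeq windows (GRCh38.p14) that run from 250 bases before a start to 50 after it. It was chosen after the sequences were seen. The TNFAIP3 window, chr6:137867009-137867308, plus strand, holds it at 67 and 55 bases before the start, counted from the first capital, each time on the opposite strand. The CYLD window, chr16:50741836-50742135, plus strand, holds it at 189 bases before the start, also on the opposite strand.
TNFAIP3: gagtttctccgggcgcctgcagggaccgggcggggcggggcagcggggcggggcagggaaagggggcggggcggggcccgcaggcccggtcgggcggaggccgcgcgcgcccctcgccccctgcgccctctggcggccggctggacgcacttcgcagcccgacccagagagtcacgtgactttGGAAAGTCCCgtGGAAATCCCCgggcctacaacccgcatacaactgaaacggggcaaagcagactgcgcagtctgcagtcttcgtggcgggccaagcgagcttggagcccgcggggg
CYLD: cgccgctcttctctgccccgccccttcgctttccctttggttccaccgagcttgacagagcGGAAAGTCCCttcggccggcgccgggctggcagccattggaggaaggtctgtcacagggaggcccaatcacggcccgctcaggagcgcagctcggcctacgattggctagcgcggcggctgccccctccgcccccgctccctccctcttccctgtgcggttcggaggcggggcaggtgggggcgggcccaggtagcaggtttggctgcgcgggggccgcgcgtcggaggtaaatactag

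Read on its own strand, the site of CYLD has the same 10 bases as the farther site of TNFAIP3, GGGACTTTCC. A second CYLD window, of a start further downstream, holds a match that begins at the start itself, GGGGCTTCCC. The windows of OTULIN, RBCK1, RNF31 and SPATA2 hold no match. Matches are a description and not a measured binding site: 5.68% of 35116 windows hold 1 or more, and by gene 6.85% of 27305. Among genes with a window, 2 of 6 described here and 14 of 23 NF-kB targets hold a match. The motif was chosen after the sequences were seen and the list was drawn up as NF-kB targets, so these shares test nothing. Of the 5 genes that fell in that list, CXCL1, CXCL2 and CXCL3 are shown, which share another form of the motif, GGGAATTTCC, on the gene's own strand at 78 or 79 bases before the start. Their 30-base stretches lie at chr4:73869314-73869323 (CXCL1, plus strand), chr4:74099264-74099273 (CXCL2, minus strand) and chr4:74038759-74038768 (CXCL3, minus strand), in GRCh38.p14, where the coordinates are those of the capitals.
CXCL1: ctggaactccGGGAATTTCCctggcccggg
CXCL2: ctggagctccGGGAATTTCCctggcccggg
CXCL3: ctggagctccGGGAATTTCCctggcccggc

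TNFAIP3 did not pass the test and the 3 chemokines fell, and each of these 4 genes has a kappaB-type match close before the start. Windows of the other genes that fell, CXCL8 and TNFAIP2, are not shown. Nor are those of RELB, which rose, or of the listed NF-kB targets that did not pass. The genes shown therefore do not tell whether a match goes with a fall. Whether the motif has a part in these differences was not tested. CXCL1, which attracts neutrophils, had 3.03, 3.27 and 6.29 FPKM in KO replicates 1, 2 and 3, against 37, 79.7 and 75 FPKM in NT replicates 1, 2 and 3. The log2 fold changes of CXCL1, CXCL2 and CXCL3 were -3.62, -2.47 and -3.59 (limma, highest adjusted p = 0.000401), and the groups overlapped for none of these 3 genes. Within NT, TNFAIP3 and the chemokines were lowest in replicate 1, but so were SHARPIN, RNF31 and SPATA2. RBCK1, OTULIN and CYLD were highest there. The chemokines are close paralogs, so their fragments are uncertain where counting could split them.

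Ratios of FPKM between the genes, printed for each library, cancel its scaling. The tested differences in log2 ratio were taken from FPKM + 1, where scaling cancels only in part. They therefore do not follow exactly from the printed ratios. With 3 against 3 libraries the exact permutation test cannot go below p = 0.1, so no ratio could pass, and the values are given for their size and spread. RBCK1 exceeded RNF31 by 12.1, 5.04 and 6.69 times in KO replicates 1, 2 and 3, against 15.7, 8.06 and 8.42 times in NT replicates 1, 2 and 3. For each replicate number the KO library had the lower ratio, but the labels state no pairing by number. The groups overlapped (difference in log2 ratio -0.45; exact permutation test, two-sided, p = 0.4, n = 3 per group). SHARPIN to RNF31 was 1.02, 0.947 and 1.48 in KO and 1.36, 1.49 and 1.38 in NT, so KO replicates 1 and 2 lay below and KO replicate 3 within the NT range (difference -0.29; exact permutation p = 0.4). OTULIN to RNF31, the linear-chain eraser against the writer, was 0.631, 0.331 and 0.238 in KO and 0.626, 0.497 and 0.498 in NT (difference -0.46; exact permutation p = 0.4). CYLD to SPATA2 was 0.424, 0.359 and 0.281 in KO and 0.392, 0.231 and 0.224 in NT (difference 0.23; exact permutation p = 0.4). SHARPIN to RBCK1 and CYLD to RNF31 differed by 0.16 and 0.03 (exact permutation p = 0.5 and 1). Adjusted over the 6 ratios, the lowest p was 0.6.

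**Figure D3:**
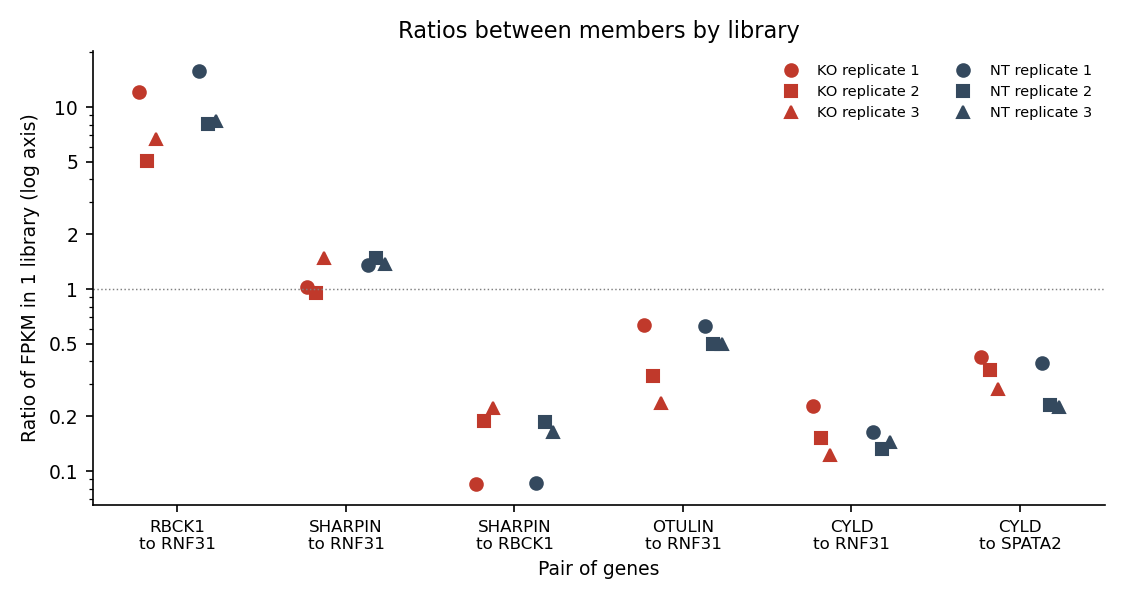
Ratio of FPKM of 2 genes within each library (log axis), KO in red left of NT in dark blue, marker shape by replicate number. The ratio of SHARPIN to RBCK1 is 0.0846 in KO replicate 1 and 0.0865 in NT replicate 1, and 0.164 or more in the other 4 libraries.

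Spread differed between the groups. For SHARPIN, RNF31, OTULIN and CYLD the SD on the log2 scale was larger among KO libraries, and for RBCK1, SPATA2 and TNFAIP3 among NT libraries. Over all genes tested it was larger among KO libraries for 74.5%, with NT replicates 2 and 3 nearly alike.

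The other lists of the pathway are read against the 12.2% of all genes called and the 25.5% with an unadjusted limma p below 0.05. Some lists share genes, so their counts, here and below, are not separate results. TNIP1, TNIP2 and TAX1BP1 are both readers and partners of A20, and BIRC3 is in the receptor complex and among NF-kB targets. Of 9 tested readers of linear chains, 1 rose, 0 fell and 8 did not pass (11.1% called, close to all genes), with a median log2 fold change of 0.00. That reader was OPTN, an autophagy receptor that binds ubiquitin, at 25.5, 17.3 and 19.4 FPKM in KO replicates 1, 2 and 3, against 15.2, 8.56 and 8.99 FPKM in NT replicates 1, 2 and 3 (log2 fold change 0.89; limma, adjusted p = 0.0385). It lost its call when any library other than NT replicate 1 was left out (limma, adjusted p up to 0.159), nor with TPM scaling, quantile normalization or no filter (0.0652 to 0.0868). Of 16 tested genes of the TNF receptor 1 signalling complex, 1 rose, 0 fell and 15 did not pass (6.25% called), with a median of 0.05. That member was TBKBP1, an adaptor of the kinase TBK1, at 7.08, 6.52 and 7.90 FPKM in KO replicates 1, 2 and 3, against 5.09, 2.76 and 3.04 FPKM in NT replicates 1, 2 and 3 (log2 fold change 0.85; limma, adjusted p = 0.0306). Each KO library was above each NT library for both genes, and NT replicate 1 was the highest NT library. TBKBP1 did not pass without KO replicate 2 or 3 or without NT replicate 2 or 3 (limma, adjusted p up to 0.168), nor with TPM scaling or no filter (0.0602 and 0.0624). At an unadjusted limma p below 0.05, 2 of 9 readers rose and 0 fell, and 3 of 16 genes of the receptor complex rose and 2 fell.

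Of 11 tested genes for E2 enzymes, ubiquitin and the E1, 0 passed with limma, 0 had an unadjusted p below 0.05, and the median log2 fold change was 0.18. UBA1, the main ubiquitin-activating enzyme, had the smallest p, at 96.5, 102 and 100 FPKM in KO and 64.5, 82 and 86.2 FPKM in NT (limma, adjusted p = 0.211). UBE2L3, the E2 that loads RBR ligases, averaged 29.0 ± 4.83 FPKM in KO and 25.3 ± 2.57 FPKM in NT (SD, n = 3 each). Of 5 tested partners of A20, 0 passed with limma and 2 had an unadjusted p below 0.05, both higher in KO, with a median of 0.14. The one with the smallest p was RNF11, a small RING protein of the A20 complex, at 22.1, 19.6 and 18.9 FPKM in KO and 17.7, 12 and 11.4 FPKM in NT (limma, adjusted p = 0.104). Of 5 tested paralogs of the deubiquitinases and of SPATA2, 0 passed and 1 had an unadjusted limma p below 0.05, with a median of 0.26. That gene was SPATA2L, the paralog of SPATA2, at 4.30, 5.10 and 6.85 FPKM in KO and 3.73, 3.03 and 2.59 FPKM in NT (limma, adjusted p = 0.0807). Of 10 tested RBR ligases other than RBCK1 and RNF31, 0 passed with limma and 0 had an unadjusted p below 0.05, with a median of -0.04. RNF217 had the smallest p there, at 1.79, 1.57 and 1.02 FPKM in KO and 2.54, 1.96 and 2.06 FPKM in NT (limma, adjusted p = 0.218).

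**Figure D4:**
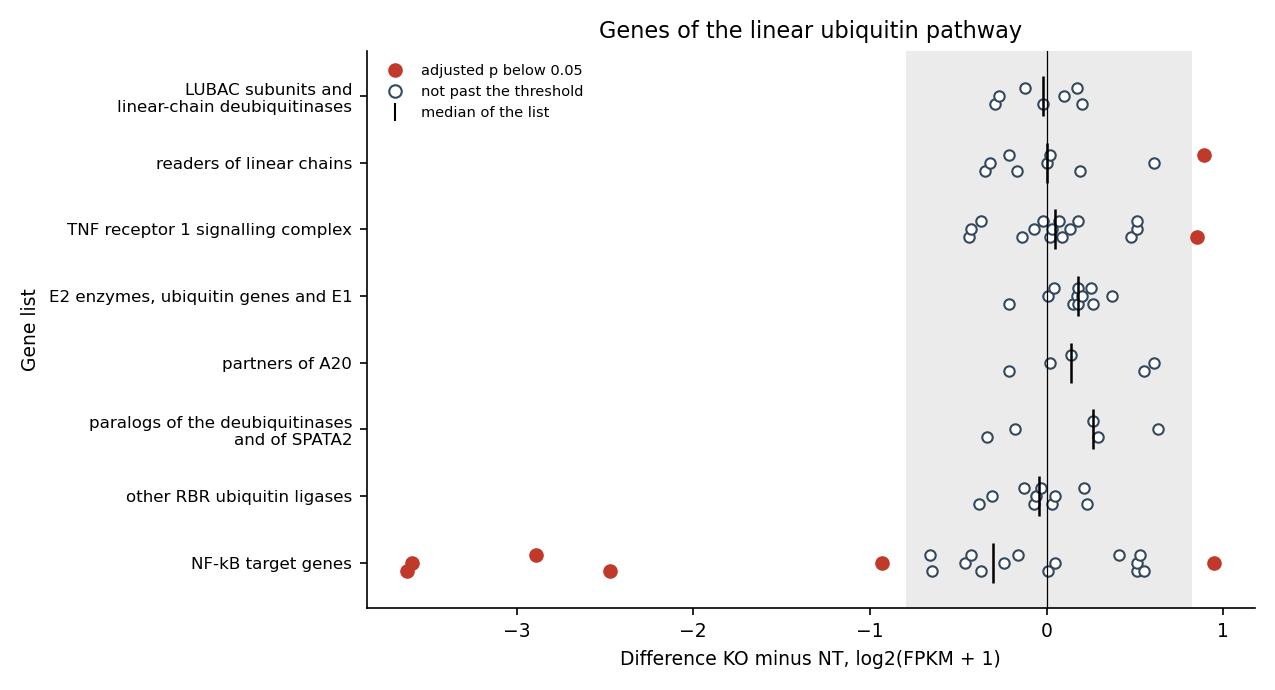
Difference KO minus NT in log2(FPKM + 1) of the tested genes of each list (n = 3 per group), filled red where limma's adjusted p is below 0.05, with the list's median as a black line. The grey band runs from the 5th to the 95th percentile of all 13092 genes tested, -0.79 to 0.82, and holds the 7 genes of the top list.

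NF-kB targets moved both ways. Of 20 tested, 1 rose, 5 fell and 14 did not pass, and the list's median log2 difference was -0.31. At an unadjusted limma p below 0.05, 5 of the 20 rose and 8 fell, where 25.5% of all genes had such a p. The share called, 30%, lies above the 12.2% of all genes, but 4 of the 6 are CXCL chemokines. These are CXCL1, CXCL2, CXCL3 and CXCL8, the last at -2.89 (limma, adjusted p = 0.000713). The other gene that fell, TNFAIP2, stood at 0.592, 0.542 and 0.531 FPKM in KO and 1.51, 2.30 and 2.13 FPKM in NT (limma, adjusted p = 0.0041). RELB, an NF-kB subunit of the non-canonical arm, rose, with 8.97, 9.86 and 12.3 FPKM in KO replicates 1, 2 and 3 against 5.47, 4.99 and 4.13 FPKM in NT replicates 1, 2 and 3 (limma, adjusted p = 0.00831). It did not pass without NT replicate 3 (limma, adjusted p = 0.0654). NFKBIA, the inhibitor IkB-alpha, which like TNFAIP3 is a feedback target, averaged 16.3 ± 3.32 FPKM in KO and 22.4 ± 4.87 FPKM in NT (SD, n = 3 each; limma, adjusted p = 0.255). NFKBIA was named for its role after its values were seen.

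A replicate block, with the replicate number as a term, called none of the 7 genes (limma, lowest adjusted p = 0.267), while 3309 genes, or 25.3%, passed with it. In the other lists, those that rose with it were 2 readers (OPTN and TNIP2), 3 genes of the receptor complex, 2 partners of A20 and 1 paralog. Of the NF-kB targets, 5 rose and 8 fell with it. TNIP2 counts both as a reader and as a partner of A20, and BIRC3 both in the receptor complex and among NF-kB targets.

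For each LUBAC subunit, the 3 genes with the most similar pattern over the 6 libraries were found among tested genes with a mean of at least 5 FPKM. Likeness was the Pearson correlation of log2(FPKM + 1), given as a description, since the libraries share depth and scaling and many genes were searched. The genes most like SHARPIN were NMI (r = 0.996), ITPA (0.991) and FOXRED1 (0.991). NMI, for example, had 4.51, 7.81 and 13.4 FPKM in KO replicates 1, 2 and 3, against 7.52, 9.15 and 8.81 FPKM in NT replicates 1, 2 and 3, the same order of KO libraries as SHARPIN. The genes most like RBCK1 were NDUFB5 (0.992), EIF3E (0.988) and GOT1 (0.987), each highest in NT replicate 1. Those most like RNF31 were NOL9 (0.998), DYNLL2 (0.997) and TRMT6 (0.996), each lowest in KO replicate 1 and high in KO replicates 2 and 3.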

How the data were processed

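Total RNA of 6 samples was enriched for poly-A RNA, and strand-marking (dUTP) libraries were run as DNA nanoballs, per the labels' protocols. Adaptors and reads of low quality were removed, per the series' design text, and the submitters' processing notes name TopHat2 2.1.1, STAR 2.7.10b and hg19. The deposited values are FPKM, computed by the authors per library. Whether strand was used in counting, and how shared fragments were assigned, is not stated in the sources. FPKM scale with the mapped total of a library, so a few abundant genes can shift all others.

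A symbol absent from a library's list was taken as 0. Coordinates come from GENCODE 44 lifted to GRCh37, where 89.0% of symbols matched, and windows before starts from RefSeq (GRCh38.p14), used for 6 of the 7 genes. Depth was estimated as the step on which FPKM times length of low, single-transcript genes gathers. Only 46 to 71 of 344 to 415 low values per library lay on it, within 2%, so depth and counting errors are estimates and no count test was run. Fragments per gene assume the canonical transcript length.

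limma 3.58.1 in R 4.3.3 was run on log2(FPKM + 1) with trend and robust settings. Fold changes on this scale understate the change of low genes. Ratios were tested by exact permutation over 20 assignments, as log2 of FPKM + 1 over FPKM + 1. Genes, lists and tests were chosen with earlier results of these data known. Named are the 7 genes, in each list up to 4 called genes with the largest change or else the one with the smallest p, and the 3 genes nearest in pattern to each LUBAC subunit. Named beyond this, after their values were seen, were TNFAIP2 and RELB to complete a count, and TNIP2, UBE2L3 and NFKBIA. So were the genes that lists share and the markers given for level alone. Same-numbered libraries deviated together from the group means (r = 0.547, 0.309 and 0.331 across genes). The labels state no pairing, so the main tests used none, and a replicate block was fitted beside them. Replicates 2 and 3 are not told apart by these correlations. KO replicate 3 correlated with NT replicate 2 at 0.320, and KO replicate 2 with NT replicate 3 at 0.321. Other settings were pseudocounts of 0.1 and 0.5, other filters (none, or a mean of at least 5 FPKM), TPM, median-ratio and quantile scaling, no trend, array weights, a replicate block, each library left out, both replicate 1 libraries left out, and NT replicates 2 and 3 as 1 sample. The limma script was tested on simulated data, where it recovered 80.4% of 2-fold and 99.2% of 4-fold changes. Of its calls there, 7.88% were unchanged genes. Simulated libraries were independent, without the likeness of same-numbered libraries or of NT replicates 2 and 3.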

Additional observations from a re-analysis of the deposited data

How the results depend on the processing

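Signs of small differences turned in several settings, none of them past the threshold. SHARPIN was 0.12 on the log2 scale without both replicate 1 libraries and ran from -0.41 to 0.17 over the fits without 1 library, RBCK1 from -0.43 to 0.00, SPATA2 from -0.20 to 0.10 (0.09 without KO replicate 1, 0.03 without NT replicate 2) and TNFAIP3 from -0.22 to 0.28 (-0.06 without KO replicate 2). SPATA2 was 0.01 with quantile normalization and 0.06 with NT replicates 2 and 3 as 1 sample, and TNFAIP3 -0.11 without both replicate 1 libraries. The log2 ratio of SHARPIN to RBCK1 ran from -0.17 to 0.55 and that of CYLD to RNF31 from -0.20 to 0.19 without 1 library. Array weights called 40.2% of all genes and 2 of the 7, RNF31 (0.34) and CYLD (0.30). They called 3 readers, 8 genes of the receptor complex, 2 of the E2 and ubiquitin genes, 2 partners of A20, 3 paralogs, 3 other RBR ligases and 16 NF-kB targets. The replicate block gave 3309 genes in all, 2 readers, 3 genes of the receptor complex, 2 partners of A20, 1 paralog and 13 NF-kB targets, and changed no call of the 7. Of all genes, 865 passed with a mean of at least 5 FPKM, 5269 with array weights and 944 with NT replicates 2 and 3 as 1 sample, against 1597, and 648 to 1869 without 1 library, or 911 (NT replicate 3), 958 (NT replicate 2) to 1970 on the same 13092 genes. Of these calls 41.0% were higher in KO with TPM scaling and 39.9% with no filter, against 51.3% in the main fit. The share was 60% with a mean of at least 5 FPKM and 60.8% with array weights. Without NT replicate 1 it was 65.6% with the filter applied anew, which genes reaching 1 FPKM only in NT could not pass. On the 13092 genes of the main fit it was 55.5%. Without both replicate 1 libraries 2 readers, 3 genes of the receptor complex, 2 partners of A20 and 1 paralog passed. In that setting 2280 of all 13092 genes passed, more than the 1597 of the main fit. No reader and no gene of the receptor complex (0 of each) passed with no filter, with TPM scaling or with NT replicates 2 and 3 as 1 sample, and no reader with quantile normalization, which gave 1 paralog. Without 1 library 0 to 1 readers, 0 to 3 genes of the receptor complex, 0 to 1 partners of A20, 0 to 1 paralogs and 4 to 8 NF-kB targets passed. The cause was not tested. OTULIN was not tested with a mean of at least 5 FPKM, nor were CYLD, SPATA2 and TNFAIP3, which lie below it.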
